A study of Mus musculus with 17 samples.

Results

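The BCL2 family decides whether a cell commits to apoptosis at the mitochondrion, and 10 of its genes were followed here by RNA-seq through the step from bone marrow macrophage to osteoclast precursor, in cells of mice with and without a myeloid Cre that targets the deubiquitinase gene Bap1. The genes are Bcl2, Bcl2l1, Mcl1, Bcl2l11, Bax, Bak1, Bid, Bad, Bbc3 and Pmaip1, chosen by name as the best known members of the family, and they are 10 of 41388 genes in the count tables. All 10 passed the filter on low counts in every comparison, so none was left out of any count below. Bone marrow macrophages (BMMs) were grown from mouse marrow in M-CSF, and preosteoclasts (preOCs) are the same kind of culture after 24 h with RANKL at 100 ng/ml, the cytokine that turns macrophages into osteoclasts. Every mouse carried loxP sites in both copies of Bap1. Bap1flox mice have no Cre, and Bap1LysM mice also carry Cre inserted in the lysozyme M gene, Lyz2 (heterozygous, +/-, by the study's methods), which is active in macrophages, granulocytes and their precursors. There were 3 Bap1flox BMM, 3 Bap1LysM BMM, 6 Bap1flox preOC and 5 Bap1LysM preOC libraries. The study's figure legends give male mice aged 20 weeks for the preOC libraries. The BMM libraries are described neither there nor in its methods, and their mice are of unstated age and sex.

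Proteins of this family fall into 3 roles. BCL2, BCL-XL (the product of Bcl2l1) and MCL1 hold the cell alive, BAX and BAK (from Bak1) are the effectors that perforate the outer mitochondrial membrane and release cytochrome c, and the BH3-only proteins BIM (from Bcl2l11), BID, BAD, PUMA (from Bbc3) and NOXA (from Pmaip1) sense stress and tip the balance by binding the other members. MCL1 and NOXA turn over quickly, and NOXA binds MCL1 in preference to BCL-XL. Osteoclasts are short-lived cells, and BIM, BCL2 and BCL-XL have each been tied to how long they survive. Several of these proteins are controlled mainly after the mRNA is made, by phosphorylation, cleavage or degradation, so an mRNA level is not a protein level.

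Counts per library summed to between 37967542 and 61369441, and each member was read at depth, from 79 to 645 counts per library for Bcl2 up to 24949 to 59295 for Mcl1. The cultures matched their labels as macrophages and osteoclast precursors. The summed level of 10 osteoclast markers was 240 to 386 normalised CPM, reads scaled to a common library total, in the 6 BMM libraries and 6060 to 16400 in the 11 preOC libraries. Bap1 itself averaged 82.0 ± 6.07 CPM (SD, n = 6) in Bap1flox and 72.1 ± 9.14 (n = 5) in Bap1LysM preOCs, a log2 difference of -0.22 ± 0.10 (SE, adjusted p = 0.182). In BMMs it averaged 85.4 ± 1.72 CPM (n = 3) and 80.0 ± 3.69 (n = 3), a difference of -0.11 ± 0.07 (adjusted p = 0.344). Loss of Bap1 is thus taken from the labels, since these counts cover the whole transcript and do not isolate the part between the loxP sites. Lyz2, where Cre sits, was looked at as well. A heterozygous insertion leaves an intact copy of the gene. Lyz2 stood at 0.149% to 0.485% of the Bap1flox mean in Bap1LysM preOCs 2, 4, 5 and 6, but at 80.6% in the library labelled Bap1LysM preOC 1. In BMMs it stood at 0.17% and 0.148% in Bap1LysM 2 and 3 but at 45.7% in the library labelled Bap1LysM BMM 1. How many copies of Cre each library's mouse carried cannot be told from the files. The plasma cell gene Jchain read 3.15 CPM or more in the Bap1LysM BMM libraries, number 1 included, and at most 0.834 in Bap1flox BMMs. In preOCs it read 4.76 or more in Bap1LysM, number 1 included, and at most 0.753 in Bap1flox. Whether the labels of the 2 Bap1LysM libraries numbered 1 are right was not tested, nor whether the other Bap1LysM libraries are heterozygous. This bears on every Bap1LysM value below. The tests of members and of list genes in which the 2 libraries numbered 1 enter are also given without them, apart from the alternative tools and the replicate block. For list genes in a fit left with a lone Bap1LysM preOC library, effect sizes alone are given. The libraries numbered 1 to 3 carry names of another form than those numbered 4 to 6, and genes of the mitochondrial genome took 0.481% to 1.074% of counts in the first set and 2.364% to 5.264% in the second, which holds preOCs alone. The tests of preOCs against BMMs therefore used replicates 1 to 3 alone, while levels described by group hold both sets unless stated.

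The family's transcripts were very unequal in abundance. Per gene length, in normalised RPKM (CPM divided by the length of the transcript), Mcl1 and Bax led in every group and together made up 71.2% to 78.3% of the summed RPKM of the 10 genes in the 17 libraries, and with Bak1 79.4% to 88.0%. Bax came first in BMMs, at 212 ± 10.9 RPKM (SD, n = 3) in Bap1flox and 215 ± 28.5 (n = 3) in Bap1LysM, and its range overlapped that of Mcl1 in both genotypes. In preOCs the order turned, with Mcl1 at 221 ± 16.9 RPKM (n = 6) above Bax at 151 ± 25.3 in Bap1flox and at 284 ± 42.6 (n = 5) above 160 ± 19.5 in Bap1LysM, with no overlap of the ranges in either genotype. In replicates 1 to 3 alone the order was the same, with Mcl1 at 214 ± 8.77 RPKM (n = 3) and Bax at 173 ± 10.3 in Bap1flox, and 226 and 263 against 172 and 184 as the lowest and highest values of Mcl1 and Bax in Bap1LysM (n = 2). Bak1 followed by group mean throughout, between 38.2 and 60 RPKM. In Bap1flox BMMs its range overlapped that of Bbc3, at 36.6 ± 0.656 RPKM. Bcl2, the founding member of the family, was the lowest in all 4 groups, at 1.29 ± 0.289 RPKM in Bap1flox BMMs and 0.379 ± 0.270 in Bap1LysM preOCs. The 6 genes between them did not all differ. In preOCs of both genotypes, Bad, Bcl2l11, Bbc3, Pmaip1, Bid and Bcl2l1 formed a run in which each overlapped its neighbour, between group means of 7.90 and 17 RPKM. In Bap1flox BMMs, by contrast, Bid, Bcl2l11 and Pmaip1 lay apart in steps of 15.2, 10.4 and 3.72 RPKM.

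**Figure D1:**
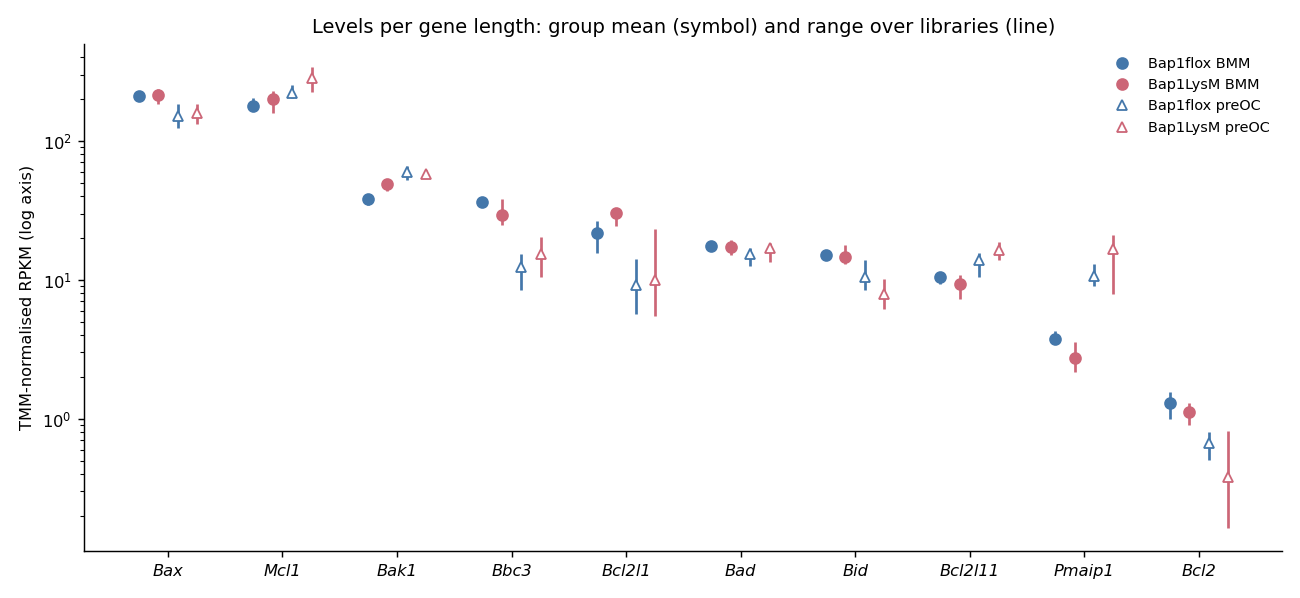
Levels of the 10 genes per gene length as TMM-normalised RPKM on a log axis. Symbols are group means and lines the range over 3 Bap1flox BMM, 3 Bap1LysM BMM, 6 Bap1flox preOC and 5 Bap1LysM preOC libraries. Mcl1 and Bax lie highest and Bcl2 lowest in every group.

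With RANKL, members of the family rose and fell in Bap1flox cells, in a comparison in which most genes changed. Comparing 3 BMM with 3 preOC libraries, 8 of the 10 genes passed an adjusted p of 0.05 in edgeR's quasi-likelihood test, where 64.6% of all 13415 genes tested did so, and 6 to 9 passed on leaving out any single library. These counts are not set apart from that background. Pmaip1, Bak1 and Mcl1 rose (31.7% of all genes rose) and Bbc3, Bcl2l1, Bcl2, Bid and Bax fell (32.9% of all genes fell). The median log2 change of the 10 genes was -0.23, beside -0.05 over all genes. In 9 of the 10 the values of the 2 groups did not overlap, as for 71.3% of all genes.

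Among the survival genes, Bcl2l1 and Bcl2 fell and Mcl1 rose. Bcl2l1 measured 72.0, 122 and 107 CPM in the BMM libraries 1, 2 and 3 and 64.4, 48.2 and 42.8 in the preOC libraries, a log2 change of -0.97 ± 0.23 (SE, adjusted p = 0.00825), or 1.95-fold lower. All 3 preOC values lay below the lowest BMM value, though BMM 1 was close to preOC 1. Bcl2 measured 9.06, 14.3 and 12.0 CPM in BMMs and 7.39, 6.09 and 6.46 in preOCs, -0.84 ± 0.19 (adjusted p = 0.00629), again with preOC 1 nearest to BMM 1. Mcl1 measured 713, 569 and 568 CPM in BMMs and 715, 750 and 776 in preOCs, 0.27 ± 0.10 (adjusted p = 0.0431). BMM 1 and preOC 1 were nearly level, and the call on Mcl1 was lost when any of the other BMM or any preOC library was left out (adjusted p 0.0564 to 0.129) and under the replicate block (adjusted p = 0.0619). When all 17 libraries entered a fit that had a term for the library set, the calls on Bcl2 (-0.50 ± 0.33, adjusted p = 0.195) and Mcl1 (0.22 ± 0.13, adjusted p = 0.154) were both lost.

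The effectors moved in opposite directions. Bak1 rose from 82.8, 99 and 93.8 CPM in BMMs to 145, 129 and 126 in preOCs, 0.53 ± 0.09 (adjusted p = 0.00213). Bax fell from 174, 192 and 187 CPM to 161, 145 and 146, -0.30 ± 0.07 (adjusted p = 0.00853). The groups were apart for both genes. With library totals in place of TMM factors the median change of all genes moved from -0.05 to 0.15, Bak1 stayed called, and Bax (-0.11, adjusted p = 0.19) and the BH3-only gene Bid (-0.17, adjusted p = 0.177) did not. Exons of Bak1 overlap 357 bases of Ggnbp1 on the opposite strand, and whether the counting used strand is not given in the sources used here.

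The BH3-only genes held the largest changes in both directions. Bbc3, which encodes PUMA, was tightly grouped at 73.6, 72.1 and 74.7 CPM in BMMs and fell to 27.9, 31.0 and 30.6 in preOCs, 2.48-fold lower (-1.31 ± 0.07, adjusted p = 1.02e-05). Pmaip1, which encodes NOXA, rose from 11.4, 9.08 and 9.14 CPM to 24.1, 25.7 and 24.9, 2.51-fold higher (1.33 ± 0.11, adjusted p = 5.61e-05). Both PUMA and NOXA are textbook products of p53 target genes, and here one fell as the other rose.

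Bid fell from 53.1, 56.4 and 52.8 CPM to 49.5, 39.6 and 38.3 (-0.36 ± 0.11, adjusted p = 0.0222), a call that 4 of the 6 fits with a library left out lost (BMM 2 or 3 or preOC 2 or 3, adjusted p 0.0556 to 0.0849). Bcl2l11, which encodes BIM, measured 90.0, 75.4 and 84.8 CPM in BMMs and 84.3, 111 and 125 in preOCs, 0.35 ± 0.14 (adjusted p = 0.07), and preOC 1 lay among the BMM values. Without preOC 1 the difference passed the test (0.49 ± 0.09, adjusted p = 0.00598). It also passed without BMM 1 (adjusted p = 0.0446), with all 17 libraries (0.0326), with upper-quartile factors (0.0466), library totals (0.016) or no filter (0.0429), and in DESeq2 (0.0305) and voomWithQualityWeights (0.00235). Bad was the steadiest member, at 35.0, 35.6 and 34.0 CPM against 31.5, 32.3 and 31.2, -0.15 ± 0.06 (adjusted p = 0.0611), although its groups did not overlap. DESeq2 called 9 of the 10 genes (65.1% of all genes) and voomWithQualityWeights all 10 (75.8% of all genes). Bid shares 628 exon bases with Bcl2l13 and Bad 517 with Gpr137, both on opposite strands.

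Markers of other cells also differed between Bap1flox BMMs and preOCs. Of 4 B and plasma cell markers tested 2 fell, Ighm from 105 ± 13 to 8.52 ± 3.27 CPM (-3.64 ± 0.29, adjusted p = 5.51e-05) and Cd79b (-1.77 ± 0.27, adjusted p = 0.00104), and the 10 listed summed to 111 to 136 CPM in BMMs and 12.9 to 27.3 in the 6 preOC libraries. Of 9 neutrophil markers Mmp8 fell (-2.01 ± 0.55, adjusted p = 0.0151), and of 2 erythroid and megakaryocyte markers Pf4 fell (-3.64 ± 0.23, adjusted p = 2.38e-05). In each of the T and NK (2 tested) and dendritic (4 tested) lists 1 marker rose and 1 fell, and of 8 stromal markers 1 rose. Of the 10 macrophage markers 9 fell and 1 rose. Under the replicate block, where 63.5% of all genes passed, 6 of 9 neutrophil markers and 2 of 2 erythroid and megakaryocyte markers fell. Of the 8 stromal markers 1 then rose and 2 fell, and of the 4 dendritic markers 2 rose and 1 fell. In Bap1LysM cells Ighm (-3.13 ± 0.65, adjusted p = 0.0284), Cd79b (-1.96 ± 0.36, 0.0218), Pf4 (-3.08 ± 0.39, 0.0107) and Mmp8 (-1.45 ± 0.35, 0.0396) fell with RANKL. Ccr7 rose (2.59 ± 0.53, 0.0272), and of 10 macrophage markers 4 fell, while 0 of 7 stromal markers passed. Without Bap1LysM BMM 1 Cd79b and Mmp8 did not pass. The part of these cells in the changes with RANKL was not tested in either genotype.

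**Figure D2:**
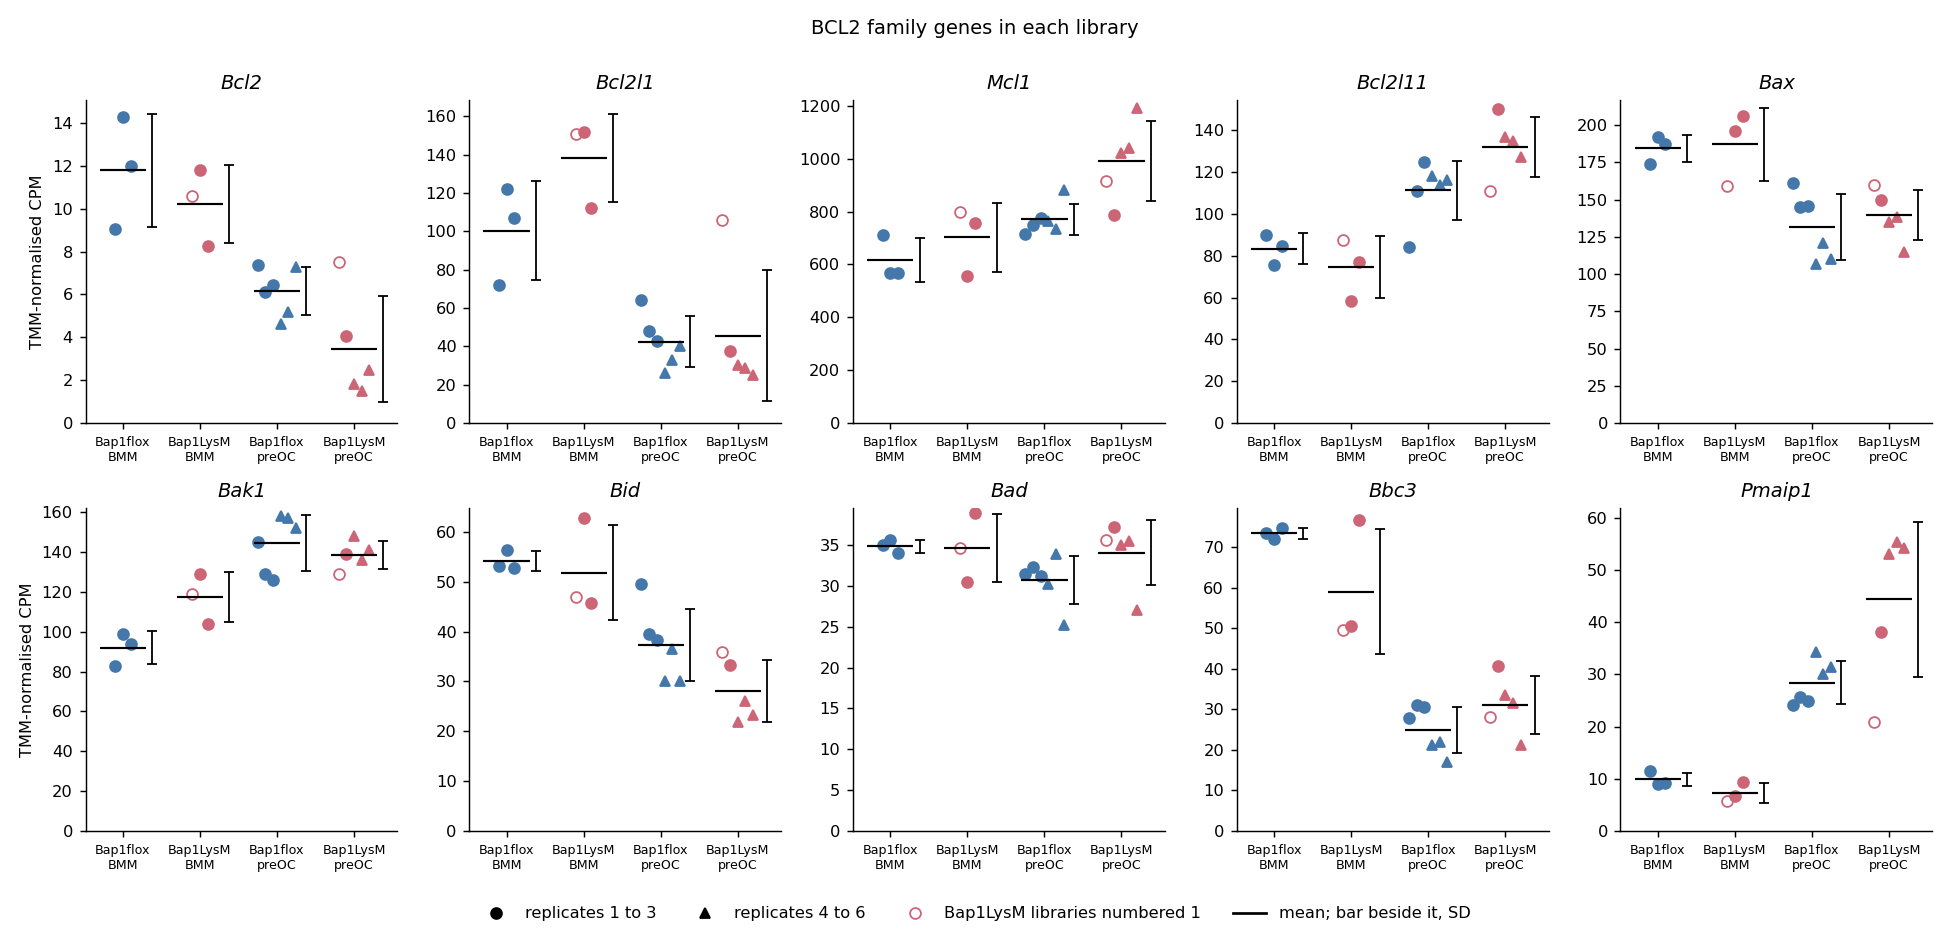
TMM-normalised CPM of each gene in the 17 libraries, by group, with the group mean (line) and SD (bar beside it). Circles are replicates 1 to 3, triangles replicates 4 to 6, and open circles the libraries labelled Bap1LysM BMM 1 and preOC 1. Bbc3 lies at 72.1 to 74.7 in Bap1flox BMMs and between 16.9 and 31.0 in Bap1flox preOCs of both sets (27.9 to 31.0 in replicates 1 to 3), and Bcl2l1 in Bap1LysM preOC 1 stands at 106 while the other 4 lie between 25.1 and 37.3.

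The 150 bases before the transcription start are shown for the 3 genes that fell most with RANKL, Bbc3, Bcl2l1 and Bcl2, and for Mcl1, the survival gene that rose. They come from RefSeq on GRCm38.p6, the build of the count tables, read 5′ to 3′ on the gene's own strand, and no annotated exon lies in them. The windows are chr7:16309433-16309582 (plus strand), chr2:152831729-152831878 (minus), chr1:106714291-106714440 (minus) and chr3:95658571-95658720 (plus), in that order. Capitals mark the GC box GGGCGG on either strand.
Bbc3: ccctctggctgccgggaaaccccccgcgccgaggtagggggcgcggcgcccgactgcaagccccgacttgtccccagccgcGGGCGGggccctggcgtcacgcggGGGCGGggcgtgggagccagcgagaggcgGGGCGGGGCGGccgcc
Bcl2l1: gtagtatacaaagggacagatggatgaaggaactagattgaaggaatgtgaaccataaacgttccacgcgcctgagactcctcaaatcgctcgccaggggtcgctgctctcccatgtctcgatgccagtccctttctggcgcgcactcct
Bcl2: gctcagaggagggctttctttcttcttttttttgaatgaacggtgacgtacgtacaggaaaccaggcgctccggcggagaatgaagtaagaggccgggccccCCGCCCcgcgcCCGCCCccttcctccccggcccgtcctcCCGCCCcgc
Mcl1: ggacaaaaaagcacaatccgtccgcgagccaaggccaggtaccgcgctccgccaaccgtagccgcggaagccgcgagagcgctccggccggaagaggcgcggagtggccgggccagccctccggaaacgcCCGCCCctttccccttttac

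The GC box, the letters bound by SP1-type factors, occurred 4 times before Bbc3 (the last pair sharing a base), 3 times before Bcl2, once before Mcl1 and not before Bcl2l1. It was present in 28.6% of 32851 RefSeq windows of the same length. Windows free of exons could be read for 7 of the 10 genes. Where RefSeq gives a gene several starts, the window nearest to the gene's start in the annotation was taken, and 6 of the 7, all but that of Bcl2l1, held the box. Motifs of factors at work in RANKL signalling or apoptosis were searched on both strands too. The AP-1 letters TGANTCA (4.24% of all windows), the cyclic AMP response element TGACGTCA (1.36%), the E box CATGTG (7.15%), the FOXO letters TGTTTAC (1.8%) and the p53 half-site (4.01%) were in none of the 7 windows, and the E box CACGTG (4.3%) was in that of Bax. At further starts, 3 more windows were free of exons. That of Bcl2l11 held 1 GC box, and of those of Bbc3, 645 and 815 bases from the annotated start, the first held none and the second 5 and an E box CACGTG. The GC content ran from 53.3% before Bcl2l1 to 82.7% before Bbc3, beside a median of 54.0% over all windows.

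In Bap1LysM cells the same comparison had 3 BMM and 2 preOC libraries, and Pmaip1 was the single member to pass the test, where 19.6% of 12998 genes did and 11.4% rose. Pmaip1 measured 5.72, 6.79 and 9.36 CPM in BMMs and 20.9 and 38.2 in preOCs 1 and 2, 4.06-fold higher (2.02 ± 0.33, adjusted p = 0.0172). The call was lost without BMM 2 (adjusted p = 0.0701), without BMM 3 (0.058) and without preOC 2 (0.0611). Ranges were apart for 7 of the 10 genes, as for 56.1% of all genes, and 5 members had an unadjusted p under 0.05, where 37.0% of all genes did.

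With 2 preOC libraries, each of them moved this comparison, and Lyz2 was near the control level in the library labelled preOC 1. Bcl2l1 measured 151, 152 and 112 CPM in Bap1LysM BMMs, 106 in preOC 1 and 37.3 in preOC 2. Its log2 change was -0.95 ± 0.43 (adjusted p = 0.17) with preOC 1 and -1.86 ± 0.24 (adjusted p = 0.00804) without it. Bcl2 measured 10.6, 11.8 and 8.26 CPM in BMMs, 7.53 in preOC 1 and 4.05 in preOC 2, and its change was -0.82 ± 0.32 (adjusted p = 0.126) with and -1.31 ± 0.31 (adjusted p = 0.0352) without. Bcl2l11 measured 87.7, 58.5 and 77.1 CPM in BMMs, 111 in preOC 1 and 150 in preOC 2, with 0.82 ± 0.22 (adjusted p = 0.0502) and 1.04 ± 0.23 (adjusted p = 0.0302). Without preOC 1 these genes and Pmaip1, 4 members in all, passed the test, where 26.2% of all genes did, on a lone preOC library that is assumed to vary as the others do. The same number passed when BMM 1 was left out as well, where 32.6% of all genes did. Without preOC 2 the changes were smaller, at -0.38 ± 0.22 for Bcl2l1 (adjusted p = 0.341), -0.44 ± 0.28 for Bcl2 (0.391) and 0.58 ± 0.24 for Bcl2l11 (0.207), and edgeR called 0 members and 4.37% of all genes.

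With no library left out, Bcl2l11 passed in DESeq2 (adjusted p = 0.0136) and in edgeR with no filter (0.0208), with library totals (0.0364) or with all 17 libraries (0.000629). The other members of the Bap1LysM comparison did not pass in edgeR, while DESeq2 called Bid (-0.61 ± 0.22, adjusted p = 0.0224) and Bbc3 (-0.80 ± 0.31, adjusted p = 0.0327), and edgeR with no filter called Bbc3 (adjusted p = 0.0447). Bbc3 measured 49.7, 50.7 and 76.8 CPM against 28.1 and 40.7 (-0.78 ± 0.27, adjusted p = 0.0937) and Bid 47.0, 62.8 and 45.7 against 35.8 and 33.3 (-0.58 ± 0.18, adjusted p = 0.07). For both genes every preOC value lay below every BMM value. Bak1 (0.20 ± 0.14), Mcl1 (0.28 ± 0.21), Bax (-0.27 ± 0.16) and Bad (0.07 ± 0.15) had adjusted p values between 0.26 and 0.763. Without preOC 1 none of these 6 passed either, with adjusted p values from 0.116 for Bid (-0.61 ± 0.24) and 0.258 for Bbc3 (-0.51 ± 0.30) to 0.664 for Bad. When all 17 libraries were fitted together with the library set as a term, 7 members passed beside 49.3% of all genes, and 8 beside 50.7% without both libraries labelled number 1.

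**Figure D3:**
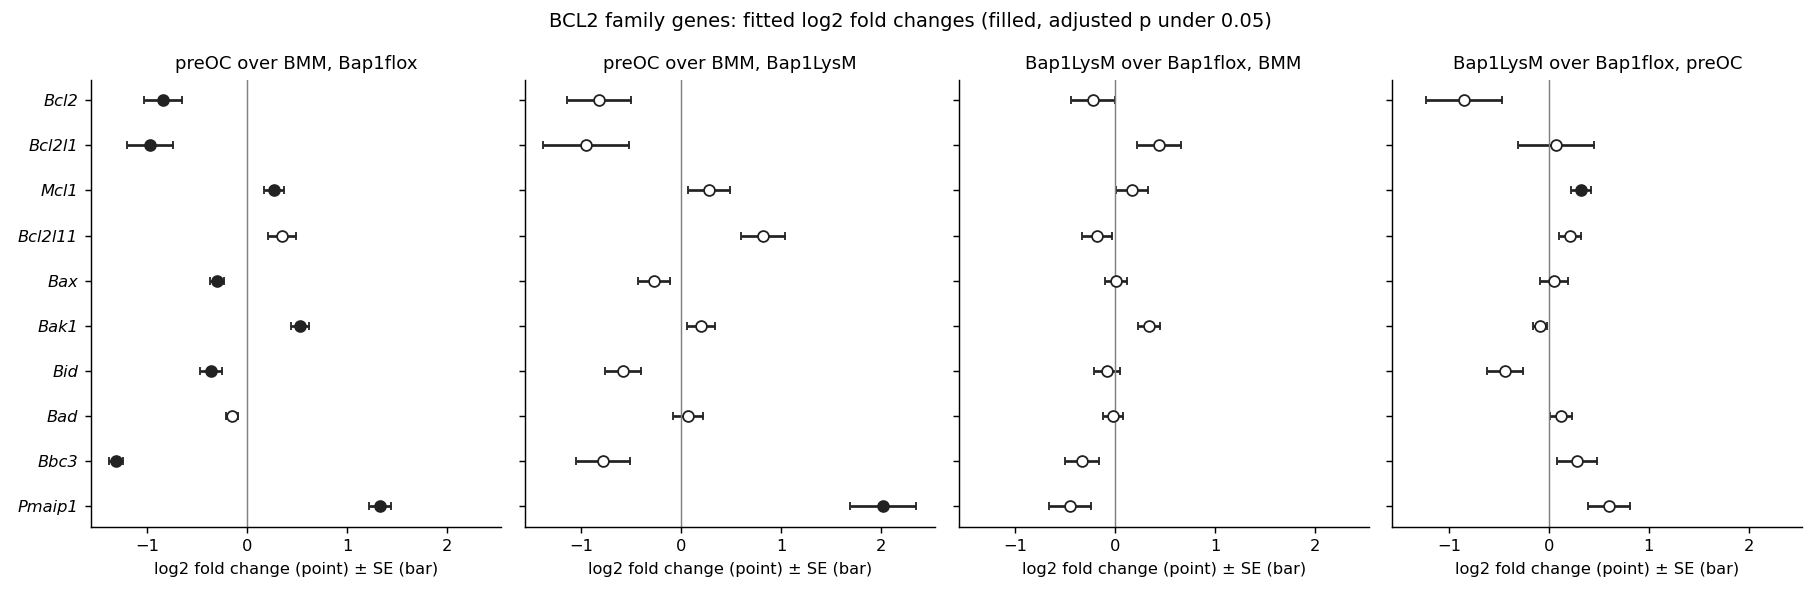
Fitted log2 fold change (point) and SE (bar) of each gene in the 4 comparisons, filled where the adjusted p is under 0.05. In Bap1flox cells RANKL gives 8 filled points, from -1.31 for Bbc3 to 1.33 for Pmaip1, while Bap1LysM cells with RANKL and preOCs of the 2 genotypes give 1 each and BMMs none.

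Whether RANKL changed a member differently in the 2 genotypes was tested as an interaction over the 11 libraries numbered 1 to 3. By edgeR no member passed, none had an unadjusted p under 0.05 (12.6% of 13637 genes did), and no gene of the genome passed the adjusted threshold, while DESeq2 called 117 genes and none of the members. The estimates were 0.68 ± 0.35 for Pmaip1 (adjusted p = 0.446), 0.52 ± 0.27 for Bbc3 (0.451), 0.45 ± 0.28 for Bcl2l11 (0.528) and -0.34 ± 0.16 for Bak1 (0.399), where a positive value is a more positive response in Bap1LysM. Without both Bap1LysM libraries numbered 1 they were 0.91 ± 0.25, 0.65 ± 0.25, 0.79 ± 0.28 and -0.28 ± 0.19 (adjusted p 0.201 to 0.499), and again no gene passed. Over the 11 libraries Bid read -0.23 ± 0.21 (adjusted p = 0.661) and Bad 0.21 ± 0.14 (0.557). The estimates of Bcl2, Bcl2l1, Mcl1 and Bax were within 0.02 of 0 with SEs of 0.16 to 0.51, too wide to show that the genotypes responded alike. Leaving out each library, Bcl2 ran from -0.51 to 0.38 and Bcl2l1 from -0.93 to 0.57, while Mcl1 ran from -0.14 to 0.11 and Bax from -0.09 to 0.09. With all 17 libraries and the library set as a term, Pmaip1 (0.97 ± 0.26, adjusted p = 0.0311) and Bak1 (-0.42 ± 0.11, adjusted p = 0.0303) passed, 2 of 10 beside 10.4% of all genes. Without both libraries labelled number 1 that fit gave 0.98 ± 0.16 (adjusted p = 0.00433) and -0.43 ± 0.13 (adjusted p = 0.0443), where 12.7% of all genes passed. These estimates borrow the second set of preOCs, which has no BMM library of its own.

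Before RANKL the genotypes did not differ in any member by the test. In BMMs 0 of the 10 genes passed in edgeR, voomWithQualityWeights or DESeq2, where edgeR called 5.32% of 13028 genes, and 1 member had an unadjusted p under 0.05, where 26.2% of all genes did. That gene was Bak1, at 82.8, 99 and 93.8 CPM in Bap1flox and 119, 129 and 104 in Bap1LysM BMMs, 0.34 ± 0.11 (adjusted p = 0.12). It was also the single member whose groups did not overlap, as 34.0% of all genes did not. Bcl2l1 was higher on average, at 138 ± 22.7 CPM (SD, n = 3) against 100 ± 25.8 (n = 3), and Pmaip1 lower, at 7.29 ± 1.87 against 9.85 ± 1.30, with adjusted p values of 0.245 and 0.225.

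Bbc3 in BMMs was split among the Bap1LysM libraries. It stood at 49.7 and 50.7 CPM in libraries 1 and 2 and at 76.8 in library 3, beside 72.1 to 74.7 in Bap1flox. The log2 difference was -0.33 ± 0.17 (adjusted p = 0.272), and without Bap1LysM BMM 3 it was -0.56 ± 0.07 (adjusted p = 0.03), the one call of a member that leaving out a BMM library made. Library 3 is not the one in which Lyz2 was high. Mcl1 (0.17 ± 0.16), Bcl2 (-0.22 ± 0.22), Bcl2l11 (-0.18 ± 0.15), Bid (-0.08 ± 0.13), Bad (-0.02 ± 0.10) and Bax (0.01 ± 0.11) had adjusted p values from 0.482 to 0.972. Without Bap1LysM BMM 1, where Lyz2 was high, no member passed and adjusted p values ran from 0.2 for Bak1 (0.33 ± 0.13) to 0.975 for Bid.

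After RANKL the picture depended on which libraries were compared. Over 6 Bap1flox and 5 Bap1LysM preOC libraries, Mcl1 alone passed the test, where 15.8% of 12929 genes did and 7.12% did so with a higher level in Bap1LysM. Mcl1 measured a lowest, median and highest of 715, 757 and 882 CPM across Bap1flox and 786, 1020 and 1190 across Bap1LysM, 1.25-fold higher (0.32 ± 0.10, adjusted p = 0.0492), and all 5 Bap1LysM values lay above the Bap1flox mean of 770. The call was at the edge of the threshold. It held without Bap1flox preOC 6, Bap1LysM preOC 1 or Bap1LysM preOC 2, was lost without any of the other 8 libraries (adjusted p 0.0818 to 0.12) and was lost with upper-quartile factors (0.0833), library totals (0.0939) or no filter (0.152). Under those settings the log2 difference stayed between 0.24 and 0.34. Under the replicate block it passed (0.32 ± 0.08, adjusted p = 0.0198).

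Of the other members 3 had an unadjusted p under 0.05, making 4 of 10 beside 30.5% of all genes. Pmaip1 was at 24.1, 27.9 and 34.3 CPM (lowest, median, highest) across Bap1flox, while Bap1LysM preOCs 1, 2, 4, 5 and 6 read 20.9, 38.2, 53.2, 55.4 and 54.3 (0.60 ± 0.21, adjusted p = 0.0717). All but the library labelled Bap1LysM preOC 1 were above every Bap1flox value, and without it the difference was 0.78 ± 0.12 (adjusted p = 0.00161). Bcl2 was at 4.6, 6.27 and 7.39 CPM across Bap1flox, and the 5 Bap1LysM libraries in the same order read 7.53, 4.05, 1.80, 1.5 and 2.45 (-0.85 ± 0.38, adjusted p = 0.158). Here too preOC 1 was the exception, above every control, while the other 4 were below every control, and without it the difference was -1.37 ± 0.29 (adjusted p = 0.00671). Bid was at 30, 37.4 and 49.5 CPM across Bap1flox, and the Bap1LysM libraries read 35.8, 33.3, 21.8, 26.1 and 23.3 (-0.44 ± 0.18, adjusted p = 0.116). Without preOC 1 it was -0.56 ± 0.18 (adjusted p = 0.0426). These genes and Mcl1 (0.34 ± 0.10, adjusted p = 0.0385) made 4 of 10 members called without that library, where 24.0% of all genes were called.

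Since the library sets differ in mitochondrial reads, each set was also taken alone. In replicates 4 to 6, 3 against 3 libraries from which the library labelled preOC 1 is absent, 4 members passed, where 33.8% of all genes did. Bcl2 averaged 5.69 ± 1.41 CPM (SD, n = 3) in Bap1flox and 1.92 ± 0.488 (n = 3) in Bap1LysM, -1.62 ± 0.25 (SE, adjusted p = 0.00163). Pmaip1 averaged 31.9 ± 2.15 and 54.3 ± 1.12 CPM, 0.73 ± 0.08 (adjusted p = 0.000415), Mcl1 793 ± 78.2 and 1080 ± 92.2, 0.41 ± 0.11 (adjusted p = 0.0184), and Bid 32.2 ± 3.76 and 23.7 ± 2.15, -0.48 ± 0.11 (adjusted p = 0.0115). In replicates 1 to 3, 3 against 2 libraries, no member passed in edgeR or had an unadjusted p under 0.05. Of all 13129 genes tested there 0 passed as well, and 17.8% had an unadjusted p under 0.05. The estimates of the 4 genes had the same signs and were smaller, at -0.21 ± 0.30 for Bcl2, 0.23 ± 0.25 for Pmaip1, 0.18 ± 0.13 for Mcl1 and -0.31 ± 0.14 for Bid, with adjusted p values of 0.324 to 0.740. With the set as a term over all 11 libraries these 4 genes passed (Bcl2 -0.96 ± 0.29, adjusted p = 0.0241, Pmaip1 0.51 ± 0.14, 0.0185, Mcl1 0.30 ± 0.08, 0.0175, and Bid -0.40 ± 0.09, 0.00608), beside 33.6% of all genes. The replicate block called 6 members, these and Bcl2l11 (0.25 ± 0.07, adjusted p = 0.0246) and Bbc3 (0.35 ± 0.10, 0.029), beside 32.8% of all genes. voomWithQualityWeights, the method of the study, called Bcl2, Bid, Pmaip1, Bcl2l11 and Mcl1, 5 of 10 beside 54.9% of all genes.

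**Figure D4:**
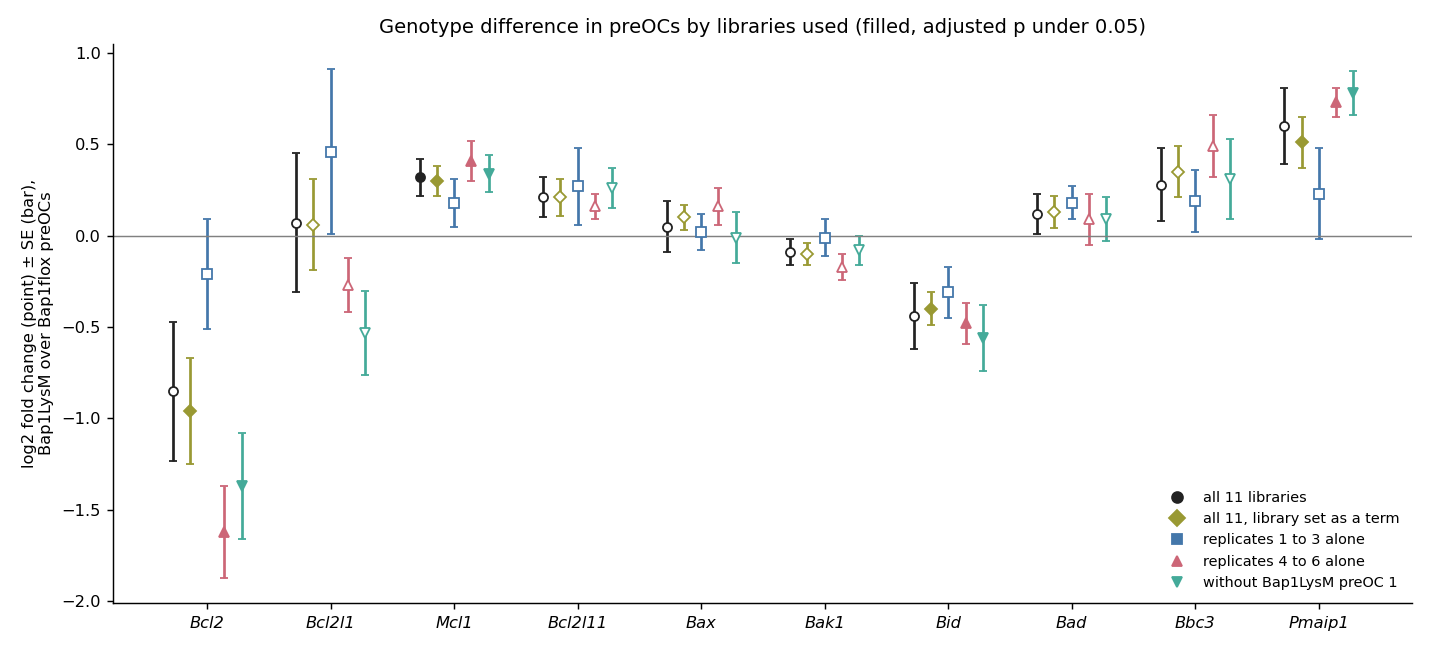
Log2 difference between Bap1LysM and Bap1flox preOCs (point) and SE (bar) of each gene by the libraries used, filled where the adjusted p is under 0.05. Bcl2 reads -0.21 in replicates 1 to 3 and -1.62 in replicates 4 to 6, and the sign of Bcl2l1 turns from 0.07 to -0.53 once the library labelled Bap1LysM preOC 1 is left out.

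The other survival gene, Bcl2l1, had no settled sign in preOCs. It read 26.2, 41.5 and 64.4 CPM (lowest, median, highest) across Bap1flox and 106, 37.3, 30.2, 28.9 and 25.1 in the Bap1LysM libraries, 0.07 ± 0.38 (adjusted p = 0.914), and -0.53 ± 0.23 (adjusted p = 0.123) without preOC 1. The effectors stayed close. Bax was at 107, 133 and 161 CPM across Bap1flox and 115, 138 and 160 in Bap1LysM (0.05 ± 0.14), and Bak1 at 126, 148 and 158 against 129, 139 and 148 (-0.09 ± 0.07), with adjusted p values of 0.833 and 0.429. Among the BH3-only genes Bcl2l11 was at 84.3, 115 and 125 CPM against 111, 135 and 150 (0.21 ± 0.11, adjusted p = 0.217), Bbc3 at 16.9, 24.9 and 31.0 against 21.1, 31.6 and 40.7 (0.28 ± 0.20, adjusted p = 0.375) and Bad at 25.2, 31.4 and 33.9 against 27.1, 35.5 and 37.2 (0.12 ± 0.11, adjusted p = 0.501). Without preOC 1 none of these 5 passed, with values of -0.01 ± 0.14 for Bax, -0.08 ± 0.08 for Bak1, 0.26 ± 0.11 for Bcl2l11, 0.31 ± 0.22 for Bbc3 and 0.09 ± 0.12 for Bad and adjusted p values from 0.11 to 0.95. No member's groups were free of overlap over the 11 libraries, where those of 9.48% of all genes were.

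Markers of other cells moved with the genotype in preOCs, where 7.12% of all genes were higher in Bap1LysM. Of 9 neutrophil markers tested, 6 were higher, and the summed level of the 10 listed was 91.6 to 245 CPM in Bap1flox and 185 to 644 in Bap1LysM. Of 5 B and plasma cell markers tested 3 were higher, with a sum of 12.9 to 27.3 and 35.0 to 86.5 CPM. Of 4 dendritic cell markers tested 3 were higher, Ccr7 (2.06 ± 0.20, adjusted p = 0.000342), H2-Ab1 (0.97 ± 0.26, 0.0286) and Zbtb46 (1.14 ± 0.31, 0.0292), with a sum of 61.7 to 200 and 126 to 197 CPM. No marker of these lists was at 0 throughout. Without Bap1LysM preOC 1 the counts were 7, 3 and 3. In the other lists 0 of 8 stromal markers passed (median -0.93, with sums of 239 to 2280 and 132 to 1450 CPM), 0 of 2 T and NK markers and 0 of 2 erythroid and megakaryocyte markers. Of 10 macrophage markers 2 were higher, among them Mertk (1.26 ± 0.30, adjusted p = 0.0157). Of 10 osteoclast markers Dcstamp was lower (-0.69 ± 0.17, adjusted p = 0.0211), while the median of that list was 0.23. Without Bap1LysM preOC 1, 2 osteoclast markers were higher and 1 lower, and 2 macrophage markers were higher and 2 lower. Of the T and NK markers 1 was then higher. In BMMs, where 1.31% of all genes were higher in Bap1LysM, the plasma cell genes Jchain (3.07 ± 0.45, adjusted p = 0.0221) and Igkc (2.82 ± 0.58, adjusted p = 0.045) were higher already and Cd79b, a part of the B cell receptor, was lower (-1.05 ± 0.20, adjusted p = 0.0363). The median of the 5 tested was -0.53 and their list summed to 111 to 136 CPM in Bap1flox and 67.7 to 136 in Bap1LysM BMMs. Without Bap1LysM BMM 1 Igkc (2.67 ± 0.65, adjusted p = 0.0882) and Cd79b (-1.08 ± 0.24, adjusted p = 0.0728) did not pass. Without Bap1flox BMM 2 or BMM 3 none of Jchain, Igkc and Cd79b passed. Neutrophils are known to depend on MCL1, and in bulk RNA a change in the share of a cell type and a change per cell cannot be told apart. The part of these cells in the genotype differences was not tested.

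Pmaip1 had the widest span of the 10 genes, 2.53 log2 units between its lowest and highest group means, followed by Bcl2 at 2.00, Bcl2l1 at 1.83 and Bbc3 at 1.59, while Bad spanned 0.18. These spans pool the library sets of preOCs, and BMMs come from the first set alone. Within replicates 1 to 3 Pmaip1 spanned 1.99, Bcl2l1 1.4, Bbc3 1.29 and Bcl2 1.07, and without the Bap1LysM libraries numbered 1 as well 2.27, 1.79, 1.29 and 1.51. In Bap1LysM preOCs Bcl2 averaged 5.79 CPM in the first set (n = 2) and 1.92 in the second (n = 3), and Pmaip1 29.6 and 54.3. Over the 17 libraries the 5 genes whose log2 CPM followed Pmaip1 most closely, out of 12337, were Atp8b1 (r = 0.986), Hagh (0.985), Ktn1 (0.977), Mapk8 (0.976) and C9orf72 (0.976). For these 5 genes r was 0.974 to 0.991 without the Bap1LysM libraries numbered 1 and 0.953 to 0.980 in replicates 1 to 3. These correlations are a description, since the libraries share groups and sets. Mapk8, which encodes the kinase JNK1, for example went from 13.5 ± 0.209 CPM (SD, n = 3) in Bap1flox BMMs to 25.0 ± 3.49 (n = 6) and 32.2 ± 7.77 (n = 5) in Bap1flox and Bap1LysM preOCs, and was at 22.5 ± 2.17 (n = 3) and 24.8 ± 7.03 (n = 2) in those of replicates 1 to 3.

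Other apoptosis genes were counted in the same Bap1flox comparison, in which 64.6% of all genes passed, 31.7% rising and 32.9% falling. The test passed 18 of 22 caspase and apoptosome genes, 8 of 13 other BCL2 family genes, 13 of 19 p53 pathway genes, 20 of 26 regulators and 9 of 14 death receptor genes, and the lists were not tested against that share. Of 22 genes for caspases, the apoptosome and mitochondrial death factors, 13 rose and 5 fell in Bap1flox preOCs, with a median of 0.31. Those that rose included Cycs, which encodes cytochrome c, from 18.4 ± 3.47 to 91.1 ± 3.53 CPM (2.30 ± 0.14, adjusted p = 1.96e-05), Endog (1.42 ± 0.11), Htra2 (1.01 ± 0.06) and the mitochondrial channel genes Vdac1 (0.85 ± 0.07) and Vdac2 (0.77 ± 0.06), along with Aifm1 (0.65 ± 0.06).

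Among 13 other BCL2 family genes that could be tested 2 rose and 6 fell. Bcl2l13, a mitochondrial BCL2-like gene that overlaps Bid, rose (0.62 ± 0.07, adjusted p = 0.000318), and Bcl2l15 went from 0 in all 3 BMM libraries to 1.42 ± 0.332 CPM (n = 3). Bcl2a1b fell (-1.85 ± 0.54, adjusted p = 0.0191), a call lost without Bap1flox BMM 2 or BMM 3. It has near-identical copies, Bcl2a1a and Bcl2a1d, and reads that fit more than a single copy were not counted, so its count is uncertain.

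Of 19 p53 pathway genes 10 fell and 3 rose, with a median of -0.34. Trp53, which encodes p53, rose from 101 ± 4.52 to 184 ± 0.701 CPM (0.85 ± 0.06, adjusted p = 3.34e-05), while the target genes Sesn1 (-2.73 ± 0.09), Gdf15 (-2.82 ± 0.14), Btg2 (-2.01 ± 0.13), Sesn2 (-1.20 ± 0.07) and Zmat3 (-1.19 ± 0.06) fell, as Bbc3 did and Pmaip1 did not.

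Of 26 genes that act on the BCL2 family 8 rose and 12 fell. Foxo3, a transcription factor that drives Bcl2l11 and Bbc3, fell from 240 ± 22.8 to 80.5 ± 3.80 CPM (-1.59 ± 0.08, adjusted p = 1.04e-05), and Foxo4 fell too (-1.16 ± 0.09). The kinase genes Mapk3, for ERK1 (-1.11 ± 0.07), Akt2 (-0.84 ± 0.06) and Pim1 (-0.88 ± 0.09) fell and Pim3 rose (0.81 ± 0.09).

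Of 14 death receptor genes 6 fell and 3 rose, among them the TNF receptor genes Tnfrsf1a (-0.80 ± 0.08) and Tnfrsf1b (-1.07 ± 0.13) and Fas (-0.73 ± 0.17), which fell, and Traf2 (1.27 ± 0.08), Mlkl (0.88 ± 0.06) and Ripk3 (0.85 ± 0.19), which rose.

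In Bap1LysM cells, in a fit of 5 libraries, 11.4% of all genes rose and 8.2% fell. The counts of risers and fallers were 7 and 1 of 22 for caspases and the apoptosome, 3 and 2 of 12 for other BCL2 family genes, 1 and 6 of 19 for the p53 pathway, 3 and 4 of 26 for the regulators and 1 and 0 of 14 for death receptors. Cycs (1.58 ± 0.22), Sesn1 (-2.73 ± 0.22), Foxo3 (-1.16 ± 0.13) and Traf2 (1.25 ± 0.13) were among them. Without Bap1LysM BMM 1 the counts in the same order were 3 and 0 of 22, 2 and 0 of 12, 0 and 2 of 19, 0 and 2 of 26 and 1 and 0 of 14, beside 8.99% of all genes. Without Bap1LysM BMM 2, 0.49% of all genes passed. Leaving out both Bap1LysM libraries numbered 1 leaves a lone preOC library, whose own spread cannot be measured. The changes of Cycs, Sesn1, Foxo3 and Traf2 were then 1.91, -3.06, -1.20 and 1.24.

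Between genotypes, 4 of 14 death receptor genes passed in preOCs, where 15.8% of all genes did, 7.12% higher and 8.68% lower in Bap1LysM. Ripk3, the kinase of necroptosis, averaged 56.5 ± 14.4 CPM (SD, n = 6) in Bap1flox against 16.5 ± 7.33 (n = 5) in Bap1LysM (-1.80 ± 0.28, adjusted p = 0.00198), Tnfrsf10b, for the TRAIL receptor, was lower (-0.65 ± 0.14), and Tnfrsf1b (0.83 ± 0.16) and Cflar, for the caspase-8 inhibitor c-FLIP (0.60 ± 0.12), were higher. Of 22 caspase and apoptosome genes 1 was higher, Birc2 (0.81 ± 0.20, adjusted p = 0.0184), and 3 were lower. Of 19 p53 pathway genes 2 were higher, Ccng1 (0.66 ± 0.15) and Eda2r (1.14 ± 0.35), and none lower. Of 26 regulators Fbxo10, for an F-box protein that marks BCL2 for degradation, was lower (-1.01 ± 0.20, adjusted p = 0.0062) and 1 gene was higher. Of the 14 other BCL2 family genes tested, 0 passed in edgeR and 3 had an unadjusted p under 0.05. Without Bap1LysM preOC 1 the genes named here still passed (Ripk3 -2.10 ± 0.23, Tnfrsf10b -0.69 ± 0.15, Tnfrsf1b 0.67 ± 0.13, Cflar 0.48 ± 0.09, Birc2 0.95 ± 0.17, Ccng1 0.73 ± 0.14, Eda2r 1.32 ± 0.32 and Fbxo10 -1.24 ± 0.14). The counts were then 4 of 14, 5 of 22, 4 of 19 and 4 of 26, and 3 of the 14 other family genes, where 24.0% of all genes passed. The replicate block kept these 8 genes and gave 7 of 14 death receptor genes, 8 of 22 caspase and apoptosome genes, 9 of 19 p53 pathway genes, 8 of 26 regulators and 3 of 14 other family genes, beside 32.8% of all genes.

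In BMMs, where 5.32% of all genes passed, 1.31% higher and 4.01% lower in Bap1LysM, 1 of 11 other family genes, 1 of 22 caspase and apoptosome genes, 1 of 14 death receptor genes, 2 of 19 p53 pathway genes and 3 of 26 regulators did so. Fbxo10 was lower as well (-0.98 ± 0.16, adjusted p = 0.0263), as was the BH3-only gene Bmf, at 32.3 ± 17 CPM in Bap1flox and 8.07 ± 2.56 in Bap1LysM (-2.01 ± 0.41, adjusted p = 0.0433). Tnf was higher (1.03 ± 0.17, adjusted p = 0.0266) and Btg2 lower (-0.90 ± 0.17, adjusted p = 0.0407). Without Bap1LysM BMM 1 Fbxo10 still passed (-1.11 ± 0.15, adjusted p = 0.0294), and Bmf (-2.27 ± 0.46, 0.0649), Tnf (1.02 ± 0.20, 0.0606) and Btg2 (-0.82 ± 0.19, 0.0857) did not. These calls also hung on single control libraries. Without Bap1flox BMM 2 or BMM 3 none of the genes named here passed, and 7 and 4 genes of all those tested did. The replicate block kept all 4 and gave 2 of 11, 4 of 22, 2 of 14, 4 of 19 and 9 of 26 genes in the same order of lists, beside 16.2% of all genes.

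**Figure D5:**
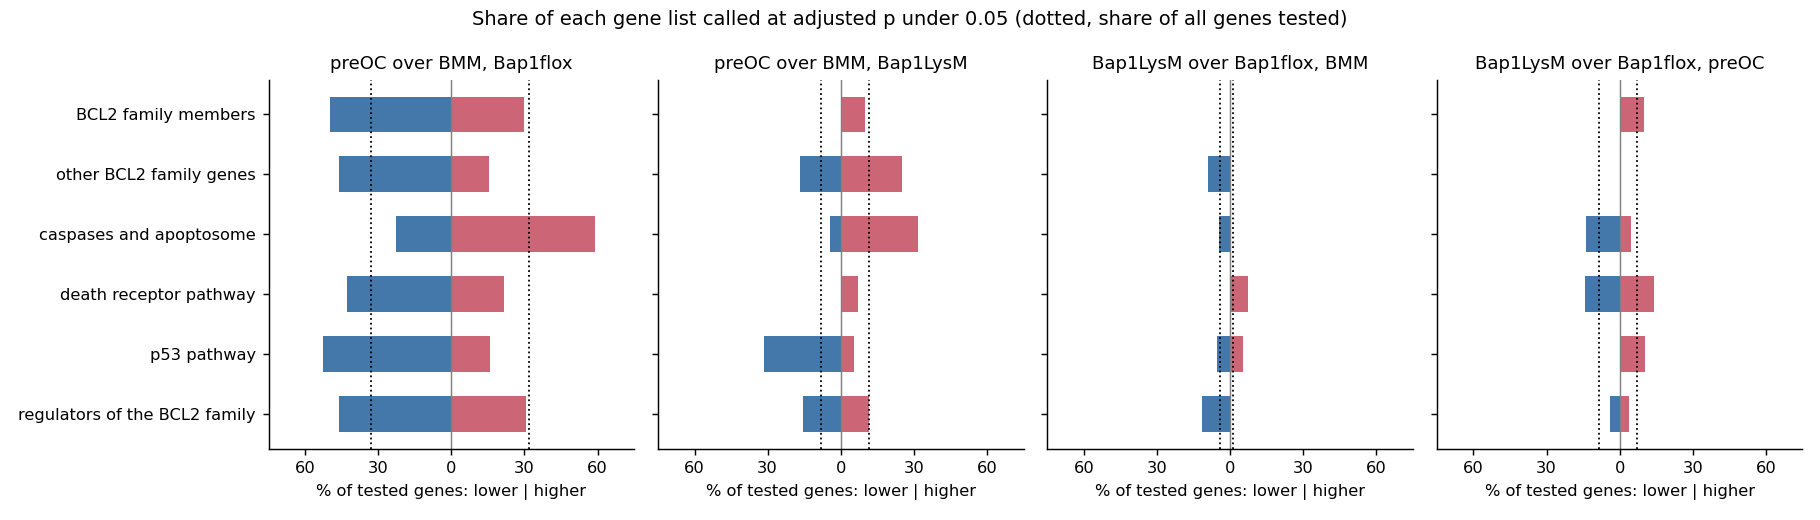
Percentage of each gene list that passed an adjusted p of 0.05, lower to the left and higher to the right, in the 4 comparisons, with dotted lines at the share of all genes tested (32.9% lower and 31.7% higher with RANKL in Bap1flox). The caspase and apoptosome list reaches furthest to the higher side and the p53 list furthest to the lower side with RANKL in Bap1flox.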

How the data were processed

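RNA-seq libraries of 17 cultures were analysed in the 4 groups given by the labels. The authors selected poly-A RNA, aligned reads to GRCm38 (Ensembl release 76) with STAR 2.5.1a and with featureCounts 1.4.6-p5 assigned to genes the reads that aligned once and fitted a single gene. The deposited counts are whole reads per gene without normalization. The deposited CPM values are counts scaled to the total of each library, and the RPKM values deposited beside them are CPM divided by gene length. Here CPM and RPKM were divided by TMM factors computed over the 17 libraries, which were 0.912 to 0.993 in BMMs and 0.942 to 1.122 in preOCs. Of the 41388 identifiers, 97.5% had a symbol in GENCODE M21, and 355 ribosomal RNA genes were left out.

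Tests were run on the counts of all genes with edgeR 4.0.16 in R 4.3.3 (quasi-likelihood test, TMM factors, CPM above 1 in at least 4 preOC libraries or 2 libraries otherwise), with Benjamini-Hochberg adjustment over all genes tested and a threshold of 0.05. Log2 fold changes are from this fit, with their SE. Alternatives were voomWithQualityWeights (limma 3.58.1), DESeq2 1.42.0, RLE or upper-quartile factors, no filter, the replicate number as a block, the library set as a term, each set alone, all 17 libraries together, and each library left out in turn. Fits without the Bap1LysM libraries numbered 1, and fits on library totals without factors, were added after seeing the data. The study calls its preOC samples independent of each other, and the source of each BMM library is not given in the sources used here, so p-values that involve BMMs may in part measure technical spread. No pair of libraries had identical counts.

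The members and gene lists were chosen with earlier results of these data known. All 10 members are named throughout. Of the 5 apoptosis lists, genes past the threshold with a fold change of at least 1.5 could be named, at most 6 per list and comparison by smallest adjusted p. For libraries of different groups that share a number in the labels, departures from the group mean were correlated over genes. The correlations were 0.61, 0.73, 0.39, 0.67 and 0.48 in preOCs, 0.54, 0.36 and 0.41 in BMMs and 0.37, 0.24 and 0.31 for RANKL in Bap1flox. The numbers were taken to pair the libraries there, apart from preOCs 4 to 6. The main fits leave this pairing out, and the replicate block takes it in. With the set means removed the correlations of preOCs 4 to 6 were 0.01, -0.15 and 0.06. Before that removal, those of preOCs 4 and 6 were not the highest with the same number, so pairing is not shown for preOCs 4 to 6. With 2 pairs, 0.52 and 0.39 for RANKL in Bap1LysM do not decide it. Promoter windows are from RefSeq, in which 9 of the 10 members were matched. Scripts were tested on simulated counts. Recovery of 1.5-fold changes was 30% (genotype in preOCs), 15% (genotype in BMMs), 36.1% (RANKL in Bap1flox), 1.75% (RANKL in Bap1LysM) and 0% (interaction). For 2-fold changes it was 65.6%, 60%, 71.2%, 11.8% and 10.9% in the same order. For 4-fold changes it was 95.7%, 91.9%, 89.9%, 82.5% and 66.7%. Calls on unchanged genes made up 8.63%, 7.94%, 7.75%, 12.7% and 3.85% of calls. A member that did not pass may thus still have changed. Python 3.11.15 was used for tables and plots, with numpy 2.4.6, pandas 2.3.3, scipy 1.17.1 and matplotlib 3.10.9.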

Additional observations from a re-analysis of the deposited data

Results flagged for a closer look

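In groups of 5 or 6 libraries, 20 pairs of a preOC group and a member were examined for a library far from the others by Dixon's criterion, which chance meets in about 1 in 20, and 4 met it. Bcl2l1 was at 106 CPM in the library labelled Bap1LysM preOC 1, with the other 4 between 25.1 and 37.3. Bcl2l11 was at 84.3 CPM in Bap1flox preOC 1, below 111 to 125 in the others. Mcl1 was at 882 CPM in Bap1flox preOC 6, above 715 to 776 in the others. Bad was at 27.1 CPM in Bap1LysM preOC 6, below 35.0 to 37.2 in the others.

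In the fit of all 17 libraries with a term for the library set, 2 of 10 members passed the interaction test, beside 10.4% of all genes. The second set in that fit has no BMM library of its own. The interaction was 0.97 for Pmaip1 (adjusted p = 0.0311) and -0.42 for Bak1 (adjusted p = 0.0303), and neither passed in the 11 libraries numbered 1 to 3.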

How the results depend on the processing

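Of 850 values of members recomputed under the alternatives, 691 kept their direction and side of the threshold, 29 kept the direction and lost the call, 62 kept it and gained a call, and 68 changed sign, 47 of these in the interaction. The cause was not tested for any of them.

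Genotype in preOCs, 1 member called: 5 with voomWithQualityWeights, 2 with DESeq2, 0 with upper-quartile factors, library totals or no filter, 6 with the replicate block, 4 with a term for the library set, 0 in replicates 1 to 3, 4 in replicates 4 to 6, 5 with the set as a term and Bap1LysM preOC 1 left out, and 0 to 4 with each library left out. Of all genes 2043 were called, 7099 with voomWithQualityWeights, 2912 with DESeq2, 2102 with upper-quartile factors, 2094 with library totals and 1595 with no filter. The replicate block called 4236 and the set term 4349. There were 0 in replicates 1 to 3, 4304 in replicates 4 to 6, 5024 with the set term and preOC 1 left out, and 1071 to 3085 leaving out each library. The main calls were 921 higher and 1122 lower, 699 and 1403 with upper-quartile factors, and 660 and 1434 with library totals. Bcl2l1 turned to -0.46 (voomWithQualityWeights), -0.02 (library totals), -0.09 (replicate block), -0.27 (replicates 4 to 6) and -0.34 (set term without preOC 1), and ran from -0.53 to 0.23 leaving out each library. Bax turned to -0.01, -0.01 and -0.03 with voomWithQualityWeights, upper-quartile factors and library totals, and ran from -0.01 to 0.12.

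Genotype in BMMs, 0 members called: 0 to 1 leaving out each library. Of all genes 693 were called, 1772 with voomWithQualityWeights, 2065 with DESeq2, 2107 with the replicate block and 4 to 756 leaving out each library. Bax turned to -0.02, -0.03 and -0.01 with voomWithQualityWeights, upper-quartile factors and library totals. Leaving out each library, Bax ran from -0.07 to 0.11, Bid from -0.23 to 0.01 and Bad from -0.11 to 0.07.

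RANKL in Bap1flox, 8 members called: 6 to 9 leaving out each library. Library totals turned Bad to 0.04 and gave 5481 genes higher and 3333 lower, beside 4252 and 4410. Bbc3, Pmaip1, Bak1 and Bcl2l1 were called in every alternative run. The replicate block called 7 members (63.5% of all genes), DESeq2 9 (65.1%), voomWithQualityWeights 10 (75.8%) and all 17 libraries with the set term 7 (62.9%).

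RANKL in Bap1LysM, 1 member called: 4 with DESeq2, 2 with library totals, 3 with no filter, 7 with all 17 libraries, 4 without both libraries numbered 1, 8 with all 17 less both, and 0 to 4 leaving out each library. Of all genes 2550 were called, 1667 with voomWithQualityWeights, 3996 with DESeq2, 6813 with all 17, 4112 without both, 6985 with all 17 less both, and 63 to 3336 leaving out each library, the lowest without Bap1LysM BMM 2. With library totals 2548 of all genes were called, and with no filter 3140 of 24256. Leaving out each library, Bad ran from -0.04 to 0.16.

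Interaction, 0 members called: 2 with all 17 libraries, 2 with all 17 less both numbered 1, and 0 in every fit leaving out a library. Of all genes 0 were called, 117 with DESeq2, 1440 with all 17, 1751 with all 17 less both, and 0 to 119 leaving out each library. Bcl2 (0.01) turned to 0.00 or below with RLE (-0.00), -0.04 with upper-quartile factors, -0.09 with library totals, -0.03 with the replicate block, -0.72 with all 17, -0.48 without both and -1.05 with all 17 less both. Bcl2l1 (0.01) gave -0.01 with DESeq2, -0.00 with RLE, and -0.05, -0.10, -0.07, -0.38, -0.87 and -0.73 in the other fits in that order. Mcl1 gave -0.07 (voomWithQualityWeights), -0.01 (DESeq2, RLE, no filter, without both), -0.04 (upper-quartile) and -0.07 (library totals). Bax (0.02) gave -0.03, -0.06, -0.13 and -0.02 with upper-quartile factors, library totals, without both and all 17 less both. Leaving out each library, Bcl2 ran from -0.51 to 0.38, Bcl2l1 from -0.93 to 0.57, Mcl1 from -0.14 to 0.11 and Bax from -0.09 to 0.09.

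Of the members the block changed no other call than those given. It kept the calls on the list genes and markers named for RANKL in Bap1flox and for both genotype comparisons. Only 2 Bap1LysM preOC libraries stand beside BMMs of their set, and Bcl2 had 79 counts in its lowest library.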
